A study of Mus musculus with 4 samples.

Results

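Transcripts of 10 subunits of the SWI/SNF chromatin remodelling complexes were followed in cultures of mouse satellite cells, the stem cells of skeletal muscle (MuSC), with and without the arginine methyltransferase Prmt5. The 10 genes, Smarca4, Smarca2, Smarcb1, Smarcc1, Smarcc2, Smarcd1, Smarcd2, Smarcd3, Smarce1 and Arid1a, were chosen by name as subunits of complexes known to work with Prmt5 at muscle genes, by a rule that uses no measured value but was set with earlier results of these data known. All 10 were among the 20065 genes of the deposited expression table, and all 10 passed the minimum mean normalized count of 5 that left 16212 genes for testing. Cells came from limb and trunk muscles of adult mice on a C57BL/6 background and were cultured. The 2 control libraries (Pax7CreERT2/Prmt5+/loxP) and the 2 Prmt5sKO libraries (Pax7CreERT2/Prmt5loxP/loxP) were all exposed to tamoxifen, so the Cre driver and the drug were shared by both groups. The labels give no route, and the authors of the data describe the sequenced cells as treated with hydroxytamoxifen, which they added to cultures. The controls, labelled wild type for genotype, carried 1 floxed Prmt5 allele themselves, and the comparison is therefore between loss of both alleles and possible loss of 1. Pax7CreERT2 is active in cells that express Pax7, the transcription factor that marks satellite cells. The labels do not say whether the replicates of a group came from separate mice or cultures, so p-values measure only the spread between these libraries. This spread is not only technical, since the level of Xist, given further on, differed strongly between the 2 libraries of each group.

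SWI/SNF complexes use the energy of ATP to slide or eject nucleosomes and so open stretches of chromatin to transcription factors. Each complex is built around a single ATPase, Brg1 (encoded by Smarca4) or Brm (encoded by Smarca2), a core of scaffold subunits, and exchangeable subunits that differ between assemblies and cell types. In muscle, Brg1 is needed for the activation of myogenic genes, the BAF60 subunit encoded by Smarcd3 is known to join MyoD before the rest of the complex arrives, and Prmt5 has been found bound to Brg1 and Brm complexes, where it methylates histones.

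The promoter sequences of the genes on which the comparison turned are shown first, since they show what kind of start site these genes have. Arid1a, Smarcd1 and Smarca4 had the largest negative fold changes of the 10 and Smarca2 had the only positive one. Each line gives the 250 bases before the transcription start in RefSeq (GRCm38.p6), 5′ to 3′ on the coding strand, in lower case, with capitals for a match to the E2F motif GCGGGAA on either strand (TTCCCGC where it lies on the other strand). The windows are chr4:133756770-133757019 (minus strand) for Arid1a, chr15:99702037-99702286 (plus strand) for Smarcd1, chr9:21615919-21616168 (plus strand) for Smarca4 and chr19:26604910-26605159 (plus strand) for Smarca2. For Arid1a, RefSeq holds 2 starts, and the one nearest to the annotated 5′ end of the gene was taken.
Arid1a promoter: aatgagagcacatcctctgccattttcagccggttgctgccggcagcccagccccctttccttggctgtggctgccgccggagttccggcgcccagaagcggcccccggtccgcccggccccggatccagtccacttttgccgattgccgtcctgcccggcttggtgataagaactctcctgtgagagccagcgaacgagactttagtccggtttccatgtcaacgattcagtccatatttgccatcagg
Smarcd1 promoter: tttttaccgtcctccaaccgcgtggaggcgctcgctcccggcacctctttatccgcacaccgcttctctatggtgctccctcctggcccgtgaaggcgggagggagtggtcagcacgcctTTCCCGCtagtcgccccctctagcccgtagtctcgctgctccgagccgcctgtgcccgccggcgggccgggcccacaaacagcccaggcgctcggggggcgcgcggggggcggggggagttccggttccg
Smarca4 promoter: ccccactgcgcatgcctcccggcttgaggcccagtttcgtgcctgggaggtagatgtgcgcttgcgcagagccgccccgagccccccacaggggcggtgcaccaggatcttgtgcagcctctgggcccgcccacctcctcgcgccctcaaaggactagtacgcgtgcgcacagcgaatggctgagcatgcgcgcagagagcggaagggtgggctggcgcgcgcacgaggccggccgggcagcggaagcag
Smarca2 promoter: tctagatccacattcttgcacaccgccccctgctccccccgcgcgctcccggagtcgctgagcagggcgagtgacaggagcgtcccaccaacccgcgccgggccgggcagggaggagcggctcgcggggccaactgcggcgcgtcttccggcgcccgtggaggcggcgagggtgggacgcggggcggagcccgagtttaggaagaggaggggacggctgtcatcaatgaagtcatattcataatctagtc

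These 4 windows were rich in G and C, at 61.2% for Arid1a, 71.2% for Smarcd1, 70.8% for Smarca4 and 68.4% for Smarca2, and held 18, 29, 25 and 28 CpG dinucleotides. Promoter windows were matched for 9 of the 10 genes, all but Smarce1. Besides the E2F motif, they were searched on both strands for the cell cycle homology element TTTGAA, the CCAAT box (CCAAT) and the E-box CAGCTG that MyoD prefers, and no promoter of the 9 held more than 1 match. For Smarcc1, Smarcd2 and Smarcd3 the RefSeq start lies well inside the gene as annotated in GENCODE. The Smarcc1 window begins at 110131774 (gene start 110117708). The windows of Smarcd2 and Smarcd3 end at 106267882 and 24602252 (5′ gene ends 106272972 and 24624411). Which start the cells used was not tested. The E2F motif was found in 2 of the 9, against 3.82% of all 32851 promoters of the same length. It lay 130 bases before the RefSeq start of Smarcd1 and 51 bases before that of Smarcb1. The GENCODE gene start of Smarcd1 (99702129) lies inside its window and upstream of the match. That of Smarca2 (26605050) also lies inside its window. The E-box was found in 1 of the 9, that of Smarcd3, at 237 bases before its RefSeq start, against 13.0% of all promoters. TTTGAA and CCAAT were found in 0 of the 9, against 16.0% and 33.8% of all promoters. A match is a description of the letters in the window and does not show that a factor binds there.

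The deposited group means could be resolved into whole read counts per library for 100% of the genes, and totals lay between 13240754 and 20047430 counts. The columns carry no replicate number, so the libraries of a group are called deeper and shallower by their totals. As a check of the labels, the normalized counts of Prmt5 itself were 2273 (deeper) and 2906 (shallower) in control and 244 and 202 in Prmt5sKO libraries. Pax7 and Myod1, named here as defining markers of satellite cells and myoblasts, lay between 2570 and 3664 and between 12152 and 15548 normalized counts in the 4 libraries. Of the 10 markers in that list, 2 had an unadjusted p under 0.05, both higher in Prmt5sKO: Cd34 (220 and 24.6 in control, 539 and 271 in Prmt5sKO libraries) and Cxcr4 (984 and 519, then 1448 and 1218). Vcam1 was also above both controls in both Prmt5sKO libraries, and Myf5 was below them. Muscle differentiation markers had a higher average in Prmt5sKO for all 16 genes (median log2 fold change 2.87). For 12 of the 16 both Prmt5sKO libraries lay above both controls, beside 25.2% of all genes. Myog, for example, had 1436 and 1189 normalized counts in control and 3707 and 19508 in Prmt5sKO libraries. The shallower Prmt5sKO library stood apart, with a median log2 ratio of 3.76 over the deeper one in these genes and a sum of 446294 against 48034 to 97155 in the other 3 libraries, where Ttn alone made up 90033 of the 97155. Fibroblast markers summed to between 6050 and 16748 counts, nearly all from Col3a1, while Lum was at 0 in 3 libraries. The 5 blood and endothelial markers in the table summed to 215 and 248 counts in control and 106 and 99.6 in Prmt5sKO libraries. Of the 4 tested, 3 (Kdr, Cd68 and Pecam1) were below both controls in both Prmt5sKO libraries, beside 23.6% of all genes. The other marker tested, Itgam, had a higher average in Prmt5sKO from few counts (4.52 and 0 in control, 3.70 and 22.1 in Prmt5sKO libraries). The part of fibroblast, blood and endothelial markers in the results was not tested. The female-specific transcript Xist was at 8668 and 5655 normalized counts in the deeper control and the shallower Prmt5sKO library and at 23.3 and 8.15 in the other 2. Ribosomal-type RNA with Lars2 took 6.54% and 14.9% of the control libraries and 1.94% and 2.64% of the Prmt5sKO libraries. The counts used in what follows were scaled by trimmed mean of M-values (TMM), and fold changes are Prmt5sKO over control.

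Across the 10 genes, 9 had lower and 1 had higher average expression in Prmt5sKO cells, and the median of their log2 fold changes was -0.22, beside 0.02 over all 16212 genes. A gene was called when it differed at least 2-fold with an adjusted p no higher than 0.05 after Benjamini-Hochberg adjustment of the limma-voom test. No member was called. That holds for 0 of 16212 genes (0%), although 2101 genes had an unadjusted p under 0.05, and limma-trend also called 0. Even Prmt5, the inactivated gene, was not called, at 0.087-fold with an unadjusted p of 1.19e-05 and an adjusted p of 0.193 in limma-voom. No gene had a smaller adjusted p in this fit. The absence of calls therefore says little about the members. A replicate block with crossed depths, which joins the libraries alike in Xist, called 346 genes, none of them a member. An unadjusted p under 0.05 was reached by 2 of the 10 genes, Arid1a and Smarcd1, both lower in Prmt5sKO, beside 6.95% of all genes lower and 6.01% higher at that level. Without the shallower Prmt5sKO library that number was 5, with Smarca4, Smarca2 and Smarcd3 added, and without the shallower control library it was 0. The share of all genes at that level moved in the same direction, from 13.0% to 16.2% and 4.04%. For 6 of the 10 genes the higher Prmt5sKO count was below the lower control count, beside 23.6% of all genes. For 1 gene, Smarca2, the lower Prmt5sKO count was above the higher control count, beside 25.2% of all genes. With scaling by library size alone, which moved the median of all genes from 0.02 to 0.13 and that of the members from -0.22 to -0.11, the groups did not overlap for 4 genes in place of 7, and these were Arid1a, Smarcd1, Smarca4 and Smarca2. Added over all 10 genes, the deeper and shallower control libraries held 28939 and 29390 normalized counts, and the Prmt5sKO libraries held 21779 and 22882. In bulk RNA, fewer cells of a type and less RNA per cell cannot be told apart.

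**Figure D1:**
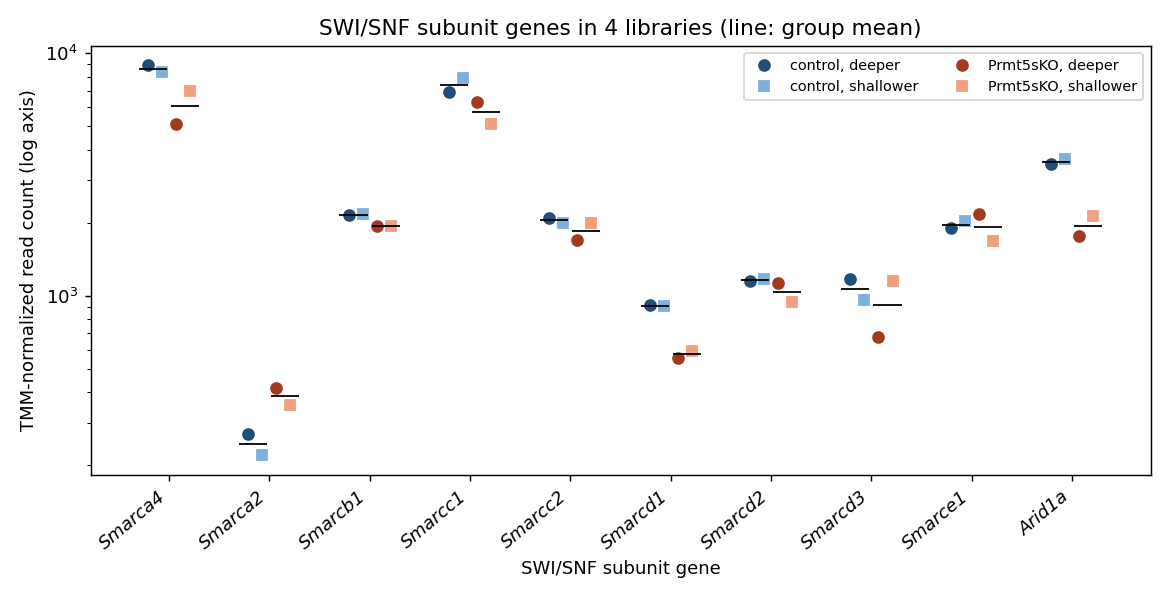
TMM-normalized read counts (log axis) of the 10 SWI/SNF subunit genes in the 4 libraries, with circles for the deeper and squares for the shallower library of each group and a line at each group mean. Arid1a and Smarcd1 show the widest gaps between blue control and red Prmt5sKO points, Smarca2 is the only gene with both red points above the blue ones, and the red points of Smarcd3 lie on either side of the lower control point.

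Arid1a (ENSMUSG00000007880, chr4:133679008-133756769, minus strand, GRCm38) had the largest difference of the 10. It encodes a DNA-binding subunit of the canonical BAF form of the complex and is often mutated in cancer. Its normalized counts were 3483 (deeper) and 3658 (shallower) in control and 1766 and 2130 in Prmt5sKO libraries, or 3571 ± 124 and 1948 ± 258 (SD, n = 2 each). Both Prmt5sKO libraries were well below both controls, and the gap between groups was several times the distance between libraries of a group. The fold was 0.543, with a 95% confidence interval of 0.383 to 0.771. This corresponds to a log2 fold change of -0.88 (standard error 0.21), an unadjusted p of 0.00523 and an adjusted p of 0.256 in limma-voom. Over 13 alternative settings its log2 fold change stayed between -1.02 and -0.74, and its unadjusted p was under 0.05 in 12 of them. The exception was the fit without the shallower control library, with an unadjusted p of 0.0532. Without the shallower Prmt5sKO library, the log2 fold change was -1.02 with an adjusted p of 0.104 in limma-voom.

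Arid1b, which encodes the mutually exclusive alternative to Arid1a in the same complex, was followed to see how the pair divides. It had 1839 and 2005 normalized counts in control and 1587 and 1494 in Prmt5sKO libraries, here and below with the deeper library given before the shallower one. Prmt5sKO libraries were again lower, by a smaller margin, with a log2 fold change of -0.32 (standard error 0.20) and an adjusted p of 0.514 in limma-voom. Per kilobase of exon, Arid1b made up 32.5% and 33.3% of the 2 genes together in control and 45.0% and 39.0% in Prmt5sKO libraries. The Arid1b share was thus higher in both Prmt5sKO libraries, at 42.0% ± 4.26 against 32.9% ± 0.58 (SD, n = 2 each), a difference of 9.12 percentage points. The log2 ratio of Arid1a to Arid1b counts was 0.92 and 0.87 in control and 0.15 and 0.51 in Prmt5sKO libraries, an average difference of -0.56. Ratios of this kind were compared for 5 pairs of subunits with a two-sided exact permutation test. For Arid1a and Arid1b the exact p was 0.33 (adjusted 0.555), the smallest exact p that 2 libraries against 2 can give, so no pair could reach significance.

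The ATPase genes differed in opposite directions, and neither difference passed the test. Smarca4 (ENSMUSG00000032187, chr9:21616169-21704230, plus strand), which encodes Brg1, had 8902 and 8351 normalized counts in control and 5104 and 7002 in Prmt5sKO libraries. Prmt5sKO libraries were both below the controls, but they differed from each other by more than the shallower of them differed from the nearest control. The fold was 0.695 (95% confidence interval 0.465 to 1.04), with a log2 fold change of -0.53 (standard error 0.24), an unadjusted p of 0.0679 and an adjusted p of 0.407 in limma-voom. Without the shallower Prmt5sKO library, in which differentiation markers and Xist were high, the log2 fold change was -0.76. It was -0.30 without the deeper Prmt5sKO library. The size of the Smarca4 difference therefore rested on which Prmt5sKO library was used.

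Smarca2 (ENSMUSG00000024921, chr19:26605050-26778322, plus strand), which encodes the alternative ATPase Brm, was the least abundant of the 10 genes. It had 269 and 220 normalized counts in control and 418 and 354 in Prmt5sKO libraries, so that both Prmt5sKO libraries lay above both controls. The fold was 1.58 (95% confidence interval 0.979 to 2.55), with a log2 fold change of 0.66 (standard error 0.28), an unadjusted p of 0.0579 and an adjusted p of 0.393 in limma-voom. In the 13 alternatives its log2 fold change lay between 0.53 and 0.79.

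Taking both ATPases together, control libraries held 33.1 and 37.9 reads of Smarca4 for each read of Smarca2, and Prmt5sKO libraries held 12.2 and 19.8. The log2 ratio was 5.05 and 5.24 in control and 3.61 and 4.31 in Prmt5sKO libraries, which do not overlap and differ by -1.19 on average (exact permutation test, p = 0.33, adjusted 0.555). Per kilobase of exon, the Smarca2 share of the pair was 1.35% and 1.18% in control and 3.58% and 2.24% in Prmt5sKO libraries. The share was higher in both Prmt5sKO libraries, yet Smarca4 still accounted for 96.4% or more of the pair in each library on this scale. The exon length of Smarca2 is uncertain, with 14269 bases over 46 annotated transcripts and 5921 bases in the longest. With the longest transcript as length, the Smarca2 share was 3.15% and 2.76% in control and 8.10% and 5.16% in Prmt5sKO libraries.

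**Figure D2:**
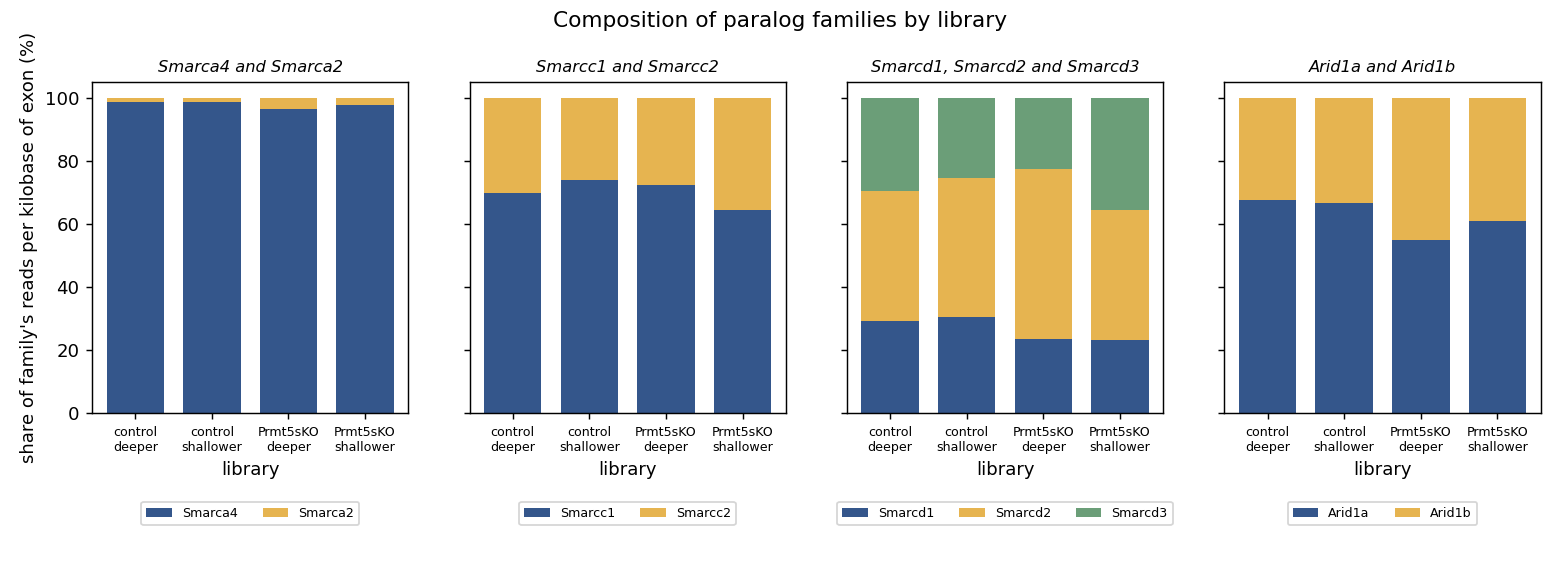
Composition of 4 families of alternative subunits in each library, as the share (%) of the family's reads per kilobase of exon, on an axis from 0 to 100%. In Prmt5sKO libraries the yellow segments of Smarca2 and Arid1b are larger and the blue segment of Smarcd1 is smaller than in both controls, while Smarcc2, Smarcd2 and Smarcd3 lie on opposite sides of the control mean in the deeper and the shallower Prmt5sKO library.

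Among the core subunits, Smarcb1 (ENSMUSG00000000902, chr10:75896769-75921617, minus strand), which encodes the core subunit lost in rhabdoid tumours, had 2144 and 2177 normalized counts in control and 1940 and 1934 in Prmt5sKO libraries. Libraries of a group were nearly equal, and Prmt5sKO libraries were slightly lower, at 0.896-fold. The 95% confidence interval of that fold, 0.649 to 1.24, includes no change (log2 fold change -0.16, standard error 0.19, adjusted p 0.733 in limma-voom).

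Smarcc1 and Smarcc2 encode related scaffold subunits on which the rest of the complex is assembled. Smarcc1 (ENSMUSG00000032481, chr9:110117708-110240178, plus strand) had 6902 and 7924 normalized counts in control and 6319 and 5092 in Prmt5sKO libraries. Its groups did not overlap, but the nearest libraries of the groups were closer than the libraries within each group, at 0.766-fold overall (95% confidence interval 0.526 to 1.11). In limma-voom this was -0.38 on the log2 scale (standard error 0.22, adjusted p 0.486). Smarcc2 (ENSMUSG00000025369, chr10:128459248-128490482, plus strand) had 2101 and 1991 normalized counts in control and 1700 and 2001 in Prmt5sKO libraries, and these overlap. Its fold was 0.902 (95% confidence interval 0.639 to 1.27), with an adjusted p of 0.764 in limma-voom. Of the reads per kilobase of both genes, Smarcc2 took 30.0% and 26.2% in control and 27.5% and 35.7% in Prmt5sKO libraries. No shift of this share was seen beyond the spread between libraries (log2 ratio of Smarcc1 to Smarcc2, difference -0.23, exact permutation test, p = 0.667, adjusted 0.667).

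The 3 BAF60 genes encode alternative subunits that link the complex to transcription factors, and each complex takes up 1 of them. Smarcd1 (ENSMUSG00000023018, chr15:99702129-99713991, plus strand), which encodes BAF60a, had 919 and 904 normalized counts in control and 556 and 592 in Prmt5sKO libraries. Values were tight in both groups, at 911 ± 10.5 and 574 ± 25.4 (SD, n = 2 each), and the groups were far apart. The fold was 0.629 (95% confidence interval 0.442 to 0.895), with a log2 fold change of -0.67 (standard error 0.21), an unadjusted p of 0.0182 and an adjusted p of 0.308 in limma-voom. Over the 13 alternatives it ranged from -0.71 to -0.56 on the log2 scale, and the unadjusted p was under 0.05 in 11, the exceptions being the fits without the deeper (0.105) or the shallower (0.10) control library. Some of the exon sequence of Smarcd1 is shared with genes on the opposite strand, 287 of 4026 bases with Gm17349 and 224 with Gm34939. The promoter shown above with an E2F match belongs to this gene. Smarcb1, which also has a match, was at 0.896-fold (95% confidence interval 0.649 to 1.24). The part of E2F in either level was not tested.

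Smarcd2 (ENSMUSG00000078619, chr11:106263179-106272972, minus strand), which encodes BAF60b and is known for its role in granulocyte development, had 1148 and 1171 normalized counts in control and 1134 and 939 in Prmt5sKO libraries. The deeper Prmt5sKO library was almost at the control level. Its fold was 0.892 (95% confidence interval 0.624 to 1.28), with an adjusted p of 0.75 in limma-voom.

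Smarcd3 (ENSMUSG00000028949, chr5:24590818-24624411, minus strand), which encodes the muscle-enriched BAF60c, was the member with the widest spread between libraries of a group. It had 1173 and 957 normalized counts in control and 678 and 1151 in Prmt5sKO libraries. The shallower Prmt5sKO library held 1.70 times the count of the deeper one and was within the range of the controls. In limma-voom the difference was -0.28 on the log2 scale (standard error 0.31, adjusted p 0.710), and it was -0.65 (unadjusted p 0.0388) without the shallower and 0.12 without the deeper Prmt5sKO library. Its direction thus depended on the library. The shallower Prmt5sKO library is also the one with high differentiation markers, among which Acta1 had 60227 and Myh3 had 70413 normalized counts there, against 4951 and 3024 in the deeper one. It is also the Prmt5sKO library with high Xist, at 5655 normalized counts against 8.15 in the deeper one. The part of either in the Smarcd3 level was not tested. Of the 5120 exon bases of Smarcd3, 2466 (48.2%) overlap exons of Chpf2 on the opposite strand, which had 2699 reads over all libraries. Whether the authors' counting used the strand is not given in the sources used here, so reads of the 2 genes may not be separated.

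Shares among the 3 BAF60 genes all include Smarcd3 in their total, and its reads may not be separated from those of Chpf2. With that limit, Smarcd1 took 29.4% and 30.4% of reads per kilobase in control and 23.6% and 23.2% in Prmt5sKO libraries. This share was lower in both Prmt5sKO libraries, at 23.4% ± 0.24 against 29.9% ± 0.76 (SD, n = 2 each), a difference of -6.50 percentage points. The other two shares differed between the Prmt5sKO libraries. In the deeper one, Smarcd2 made up 53.9% and Smarcd3 22.6%, and in the shallower one Smarcd2 made up 41.3% and Smarcd3 35.5%. The control libraries lay between these, with 41.2% and 44.2% for Smarcd2 and 29.5% and 25.3% for Smarcd3, except that Smarcd2 in the deeper control library was as low as in the shallower Prmt5sKO library. The log2 ratio of Smarcd1 to Smarcd2 differed by -0.50 (exact permutation test, p = 0.33, adjusted 0.555), without overlap of the groups. That of Smarcd3 to Smarcd1 differed by 0.40 with overlap (exact permutation test, p = 0.667, adjusted 0.667).

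Smarce1 (ENSMUSG00000037935, chr11:99209047-99231017, minus strand), which encodes the HMG-box subunit BAF57, was the member with the smallest difference. It had 1899 and 2036 normalized counts in control and 2165 and 1687 in Prmt5sKO libraries, which lie above and below both controls. Its fold was 0.972 (95% confidence interval 0.671 to 1.41), with an adjusted p of 0.949 in limma-voom, and the sign of its log2 fold change of -0.04 changed with the scaling, to 0.065 with library size alone. A processed pseudogene copy, Smarce1-ps1, is annotated, and reads shared with it could have been assigned to either.

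Levels of different genes were set side by side as reads per kilobase of exon, scaled to library size. In control cells the order of average levels was Smarca4 (82.6), Smarcc1 (58.7), Smarcc2 (22.8), Smarcd2 (20.03), Arid1a (19.3), Smarce1 (18.3), Smarcb1 (16.9), Smarcd1 (14.0), Smarcd3 (12.9) and Smarca2 (1.06). Smarca4 and Smarcc1 were thus far ahead of the other core subunits, and Brm transcripts were far behind. Arid1a and Smarce1 could not be ranked beyond the spread of the libraries, nor could Smarcd1 and Smarcd3. In Prmt5sKO cells the averages were 57.9 for Smarca4, 45.2 for Smarcc1, 20.7 for Smarcc2, 17.9 for both Smarce1 and Smarcd2, 15.1 for Smarcb1, 11.1 for Smarcd3, 10.5 for Arid1a, 8.84 for Smarcd1 and 1.68 for Smarca2. In this order Smarcc2, Smarce1 and Smarcd2 overlapped between libraries, and so did Smarcd3 with Arid1a and with Smarcd1. Arid1a had the fifth place in control and the eighth in Prmt5sKO cells. Part of this order depends on the length used. With the longest transcript of each gene as length, an alternative added after the data were seen, Smarce1 took the place 3 in both groups and Smarcc1 (61.3) came before Smarca4 (58.8) in Prmt5sKO cells, while the places of Arid1a and of Smarca2 stayed as they were. Averaged over all libraries, Smarca4 stood at percentile 95.7 of the genes tested and Smarca2 at percentile 29.8, and the other 8 members lay between percentiles 73.3 and 94.3.

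The rest of the complex was described by a list of 20 further subunits, of which 18 were in the table and all 18 were tested, while Actl6b and Bcl11a were not analysed here. Of these, 11 had a lower and 7 a higher average in Prmt5sKO (median log2 fold change -0.23). None was called, and 1 had an unadjusted p under 0.05, a share no higher than the 6.95% of all genes lower at that level. This was Actl6a, which encodes the actin-related subunit BAF53a that is typical of stem and progenitor cells. It had 1388 and 1471 normalized counts in control and 934 and 879 in Prmt5sKO libraries, and the groups did not overlap. Limma-voom gave -0.65 on the log2 scale (standard error 0.20, unadjusted p 0.0161, adjusted p 0.30). The number at that level was 0 without either control library and 2 without the shallower Prmt5sKO library. Counts did not overlap between groups for 8 of the 18, with Prmt5sKO lower for 6 and higher for 2, beside the 23.6% and 25.2% of all genes given above.

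**Figure D3:**
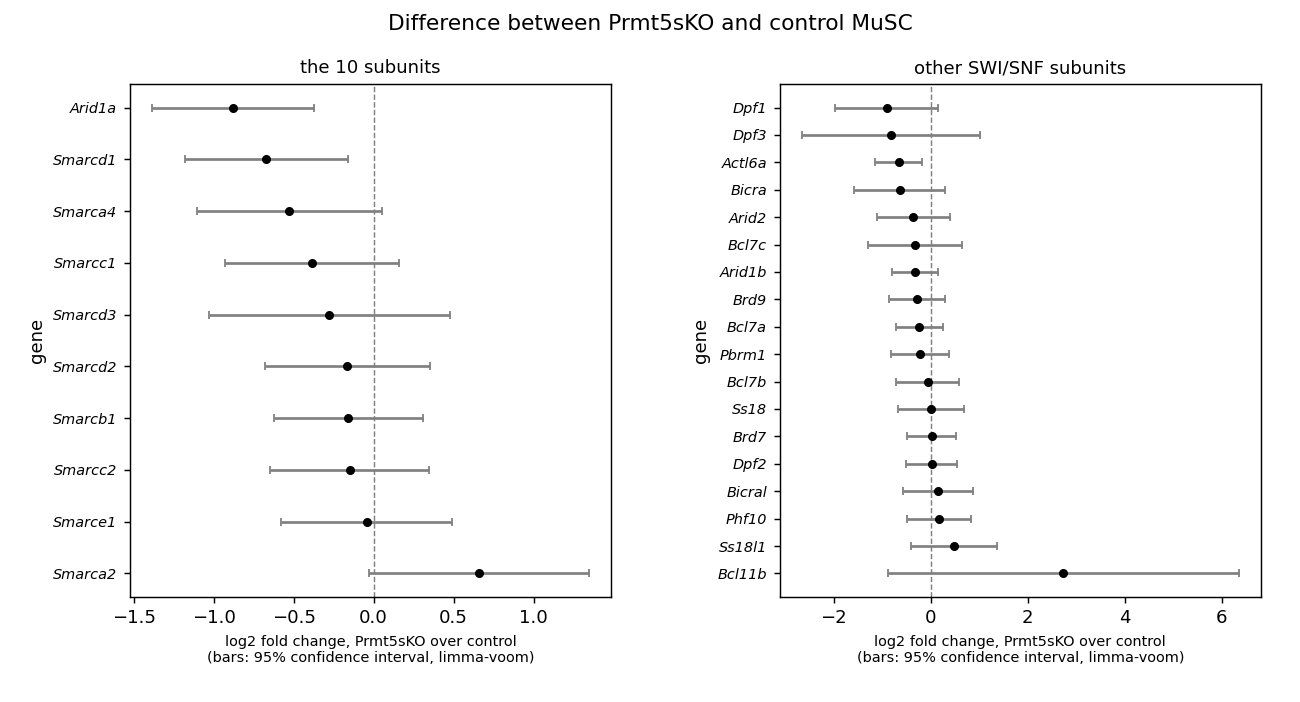
Log2 fold changes, Prmt5sKO over control, from limma-voom with 95% confidence intervals, for the 10 subunits (left) and 18 other SWI/SNF subunits (right, wider axis), sorted by value. Most points lie left of 0, and the intervals of Arid1a, Smarcd1 and Actl6a are the ones that exclude 0.

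ATPases of other remodelling families (ISWI, CHD, INO80 and relatives) were taken for comparison, and all 21 were tested. Of these, 16 had a lower and 5 a higher average in Prmt5sKO (median log2 fold change -0.17), close to the medians of the SWI/SNF lists. Groups did not overlap for 11 of the 21, beside 23.6% of all genes lower and 25.2% higher. Prmt5sKO was lower for 9 of these and higher for 2. An unadjusted p under 0.05 in limma-voom was reached by 3, all lower, beside 6.95% of all genes lower at that level. Hells, a helicase of heterochromatin in dividing cells, had 1311 and 1663 normalized counts in control and 771 and 543 in Prmt5sKO libraries (log2 fold change -1.18, adjusted p 0.248 in limma-voom). Srcap and Ep400, which help to deposit the histone variant H2A.Z, had log2 fold changes of -0.91 and -0.74 (adjusted p 0.295 and 0.334 in limma-voom). Lower averages in Prmt5sKO thus also prevailed among ATPases outside SWI/SNF, and the difference between the lists was not tested.

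Proliferation markers differed in the same direction as most of the member genes. All 8 had a lower average in Prmt5sKO cells (median log2 fold change -1.04). An unadjusted p under 0.05 in limma-voom was reached by 6 of the 8, beside 6.95% of all genes lower at that level. Counts of the 8 summed to 32241 and 37341 in control and 17862 and 16140 in Prmt5sKO libraries, below the controls in both. The 4 most abundant were Mki67, Top2a, Mcm5 and Cdk1, of which Mki67, a marker of cycling cells, had 9130 and 12079 normalized counts in control and 4488 and 3972 in Prmt5sKO libraries. The part of cell cycling in the lower levels of Arid1a, Smarcd1 and Smarca4 was not tested. The muscle differentiation markers (Ttn, Myh3, Acta1 and Mylpf were the most abundant) were above both controls in both Prmt5sKO libraries for 12 of 16 genes, beside 25.2% of all genes. An unadjusted p under 0.05 in limma-voom was reached by 3 of them, all higher, beside 6.01% of all genes higher at that level. The part of differentiation in the levels of the members was not tested.

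**Figure D4:**
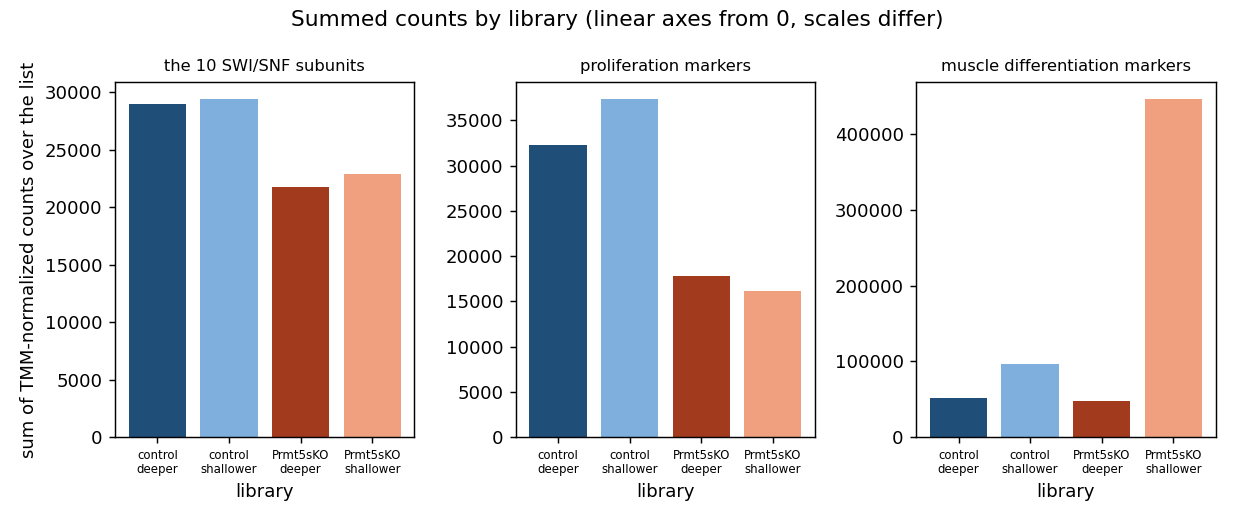
Sums of TMM-normalized counts per library over the 10 SWI/SNF subunits, 8 proliferation markers and 16 muscle differentiation markers, on linear axes from 0 with different scales. For the first 2 lists both Prmt5sKO sums are below the control sums, and the third sum is high in the shallower Prmt5sKO library.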

How the data were processed

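RNA of cultured MuSC from 2 control and 2 Prmt5sKO samples was depleted of ribosomal RNA and sequenced on an Ion Torrent Proton. The authors trimmed the reads, aligned them to GRCm38 (mm10) with STAR 2.4.0a and compared groups with DESeq2 1.62, versions as in the submitters' processing notes. Strand use in counting is not given in the sources used here. In the deposited signal columns, the authors had averaged counts divided by size factors, per group and for all 4 libraries. The authors' log2 fold changes with standard errors and the authors' p-values were also deposited, and neither was used.

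Each group mean combines whole counts of 2 libraries with different size factors, and only 1 pair of whole counts gave each mean, so counts were recovered (relative residuals up to 5.83e-15; tested on simulated data). Totals were 14436914 and 13240754 for control libraries, and 20047430 and 16190414 for Prmt5sKO libraries. Counts were scaled by TMM with own code (trims of 30% and 5%). Groups were compared with limma-voom (limma 3.58.1, R 4.3.3, tested on simulated data) over 16212 genes (mean normalized count 5 or more) with Benjamini-Hochberg adjustment, and genes were called from a 2-fold change and an adjusted p not above 0.05. Symbols, coordinates and exon lengths came from GENCODE M21 (19782 of 20065 identifiers), and promoters came from RefSeq. Alternatives changed the scaling, the filter, the test, the pairing and the abundant RNA, and left out each library.

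The members and lists were chosen with earlier results of these data known. Genes named were the 10 members, Prmt5, Arid1b, up to 3 genes in each direction with an unadjusted p under 0.05 of each comparison list, and the 4 most abundant of each marker list that moves with a member. Other genes were named after their values were seen.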

Additional observations from a re-analysis of the deposited data

How the results depend on the processing

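In 13 alternatives no member was called (lowest adjusted p 0.0796, Arid1a, crossed pairing, limma-voom). Since no replicate number stands on the columns, the replicate block was run both ways, and the crossed way joins libraries alike in Xist. Deviations correlated at -0.30 with the deeper libraries paired over 11487 genes. With 2 libraries a group, the crossed pairing only turns the sign, to 0.30, so this value is not a separate result. The replicate block with the deeper libraries paired called 0 genes of all tested, and the crossed one 346. It gave 2 and 3 members with an unadjusted p under 0.05, the third being Smarca4. Leaving out 1 library, with the lone library assumed to vary like the other group, gave 0 to 489 called genes (489 without the deeper and 55 without the shallower Prmt5sKO library), 0 to 5 members and 0 to 2 other subunits with an unadjusted p under 0.05. Under the same omissions the log2 fold change of Smarce1 ranged from -0.22 to 0.14 and that of Smarcd3 from -0.65 to 0.12, the share difference of Smarcc2 from -0.59 to 7.57 percentage points and that of Smarcd3 from -4.83 to 8.06, so all 4 changed sign. Sign changes came without the shallower control library (Smarce1 0.01, Smarcd3 share -0.46), without the deeper Prmt5sKO library (Smarcd3) or without the shallower one (the rest). With scaling by library size alone, members without overlap numbered 4, 3 members had an unadjusted p under 0.05, and Smarce1 had a log2 fold change of 0.065. The Smarca2 share was 3.67 points higher in Prmt5sKO with the longest transcript as length. The cause of these changes was not tested. In the order of levels, 9 of 20 places differed with that length. The other 210 values kept their direction and call, or stayed within 1.5 times the count or the spread between libraries. On the log2 scale the narrowest 95% interval of a member, that of Smarcb1, spans -0.62 to 0.31.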
